A study of Mus musculus with 9 samples.

Results

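The type I and type II receptors of bone morphogenetic proteins (BMPs) and activins were examined in mouse spinal cord, as the receptor family on which the kinase inhibitor LDN193189 acts. Members were taken by gene symbol: the type I receptors Acvr1, Bmpr1a, Bmpr1b, Acvrl1, Acvr1b, Acvr1c and Tgfbr1 and the type II receptors Bmpr2, Acvr2a and Acvr2b. These are 10 of the 40879 gene symbols in the deposited tables, and all 10 were above the low-count filter that left 18245 genes for testing. The study sequenced spinal cord RNA of male mice in 9 libraries. They comprised 3 of SNI+LDN193189, in which injured mice also received the inhibitor, 3 of SNI and 3 of sham. SNI is read as spared nerve injury, a model of neuropathic pain in which branches of the sciatic nerve are cut and another is left intact, and sham as surgery without that injury. The labels give no strain, genotype, age, cord segment or side, time after injury, dose, route or vehicle, and do not say whether SNI or sham mice received a vehicle. SNI+LDN193189 thus differs from sham by the injury and the inhibitor together. The extraction protocol in the labels speaks of cell lines, while the tissue label is spinal cord.

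Ligands of this family bind a pair of type I and a pair of type II receptors. The type II kinase phosphorylates the glycine-serine stretch of the type I receptor, and the type I kinase then phosphorylates SMAD proteins. Acvr1, Bmpr1a, Bmpr1b and Acvrl1 signal through SMAD1, SMAD5 and SMAD9, the BMP branch, whereas Acvr1b, Acvr1c and Tgfbr1 signal through SMAD2 and SMAD3, the activin and TGF-beta branch. LDN193189 blocks the kinase of the BMP-branch type I receptors and acts more weakly on the other branch, so its direct effect is on enzyme activity. The libraries measure RNA and not kinase activity or phosphorylated SMADs. The study's title names ACVR1, which made its RNA level the first to report.

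Each library held 33432776 to 37190467 counts, and the receptors had 355 to 10701 counts each. Genes were compared between groups in CPM, which divides each library's counts by its total times a TMM scaling factor (0.984 to 1.02). Levels were compared between genes in the deposited FPKM, which divides by the unscaled total and by gene length. The labels call the replicates biosamples and do not speak of separate animals, so each p-value reflects only how these samples scatter, which may be technical. In bulk tissue fewer cells of a type and less RNA per cell cannot be told apart. Markers of the labelled tissue were high in every library, with 2501 to 3033 CPM of the neuronal gene Snap25 and 10573 to 12739 CPM of the myelin gene Mbp. Some libraries stood apart. Sham replicate 3 had the highest sum of nerve root markers (4737 CPM, against 183 to 1624 in the other 8 libraries) and of meningeal fibroblast markers (1210 CPM, against 420 to 711). Sham replicate 1 had 696 CPM of skeletal muscle markers, against at most 17.0 elsewhere. Sprr1a, a gene that injured neurons switch on, stood at 6.38, 17.4 and 0.688 CPM in SNI+LDN193189, at 6.62, 15.1 and 23.0 CPM in SNI and at 0.161 to 0.235 CPM in sham. Replicate 3 of SNI+LDN193189 was thus close to the sham level for this gene.

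All 10 receptors were detected in all 9 libraries, and they spanned a wide range of levels per length. Bmpr2, the BMP type II receptor, stood highest with 24.9 ± 0.839 FPKM (mean ± SD, n = 9 libraries of all groups). Next came Acvr1b, an activin type I receptor, with 17.3 ± 0.599 FPKM and Bmpr1a, a BMP type I receptor, with 15.9 ± 0.584 FPKM. These levels lay at percentiles 87.4, 81.8 and 80.1 of all genes tested. Acvr1, the receptor named in the title, followed at 7.64 ± 0.893 FPKM, close to Acvr2a, an activin type II receptor, at 6.88 ± 0.590 FPKM and Tgfbr1, the TGF-beta type I receptor, at 6.51 ± 0.468 FPKM. Acvrl1, a receptor known for its role in blood vessels, averaged 4.34 ± 0.851 FPKM and Bmpr1b, a BMP type I receptor, 4.11 ± 0.444 FPKM. Acvr2b, the other activin type II receptor, averaged 2.02 ± 0.201 FPKM and Acvr1c, a type I receptor of nodal and activin ligands, 1.25 ± 0.140 FPKM. The ranges over the libraries overlapped for the neighbours Acvr1 and Acvr2a, Acvr2a and Tgfbr1, Tgfbr1 and Acvrl1, and Acvrl1 and Bmpr1b. Every other pair of neighbours was apart in all 9 libraries.

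**Figure D1:**
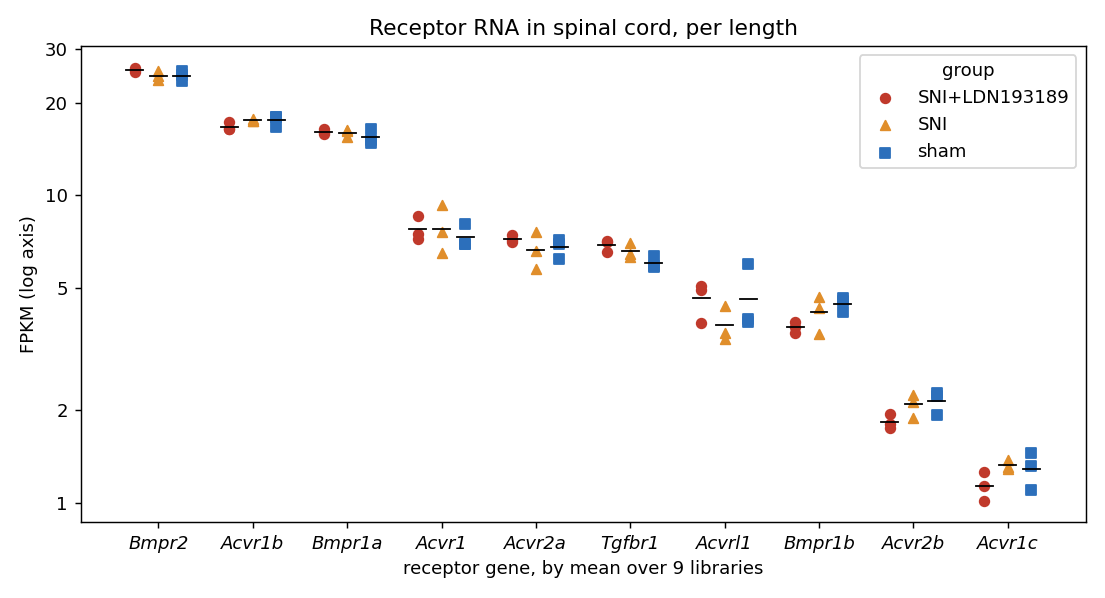
FPKM of each receptor (log axis) in the 9 libraries, ordered by the mean over all of them. Each point is a library, each short line a mean of 3 libraries. Bmpr2 lies highest at 23.5 to 26.0 FPKM and Acvr1c lowest at 1.02 to 1.45 FPKM, and within each gene the 3 groups lie close together.

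The spread over libraries differed among the receptors. The coefficient of variation of FPKM was 3.38% for Bmpr2, 3.47% for Acvr1b and 3.69% for Bmpr1a. It was 11.7% for Acvr1 and 19.6% for Acvrl1, whose highest library, sham replicate 3, held 1.76 times the FPKM of its lowest, SNI replicate 2. The endothelial marker sum was also highest in sham replicate 3, at 499.5 CPM, against 398 to 458 CPM in the other libraries, and its part in the Acvrl1 level was not tested.

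The order of levels rests on the gene lengths behind the deposited FPKM. These lengths were 12286 bases for Acvr2b, 9802 for Bmpr1b, 11791 for Bmpr2 and 3789 for Acvr1, while the exons of the GENCODE M21 annotation of GRCm38 cover 3928, 5962, 17983 and 4829 bases in the same order. With the annotated lengths Acvr1b stood highest at 17.2 FPKM, followed by Bmpr2 at 16.3 and Bmpr1a at 15.1 FPKM. Acvr2a then stood at 6.89 FPKM, Bmpr1b at 6.76, Tgfbr1 at 6.38, Acvr2b at 6.33 and Acvr1 at 5.99 FPKM. Acvr1 thus ranked 8 of the 10 in this order, against 4 with the deposited lengths. The annotation behind the counts is not given, so this order divides counts by lengths of gene models that may differ. Where the deposited length is longer, as for Acvr2b and Bmpr1b, counts outside the annotated exons may raise the value. Where it is shorter, as for Bmpr2 and Acvr1, the value may be too low. Acvr1c stayed the lowest at 1.35 FPKM. Differences between groups do not depend on these lengths, since 1 fixed length per gene served all libraries.

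The 10 genes lie on 7 chromosomes in GRCm38, and some are neighbours. Acvr1 (chr2:58388644-58567157, minus strand) and Acvr1c (chr2:58267453-58357895, minus strand) are 30748 bases apart. Acvrl1 (chr15:101128522-101145336, plus strand) and Acvr1b (chr15:101174067-101213684, plus strand) are 28730 bases apart. Bmpr2 lies at chr1:59763400-59879014 on the plus strand and Bmpr1a at chr14:34410734-34503341 on the minus strand. Bmpr1b lies at chr3:141837136-142169425 on the minus strand, Tgfbr1 at chr4:47353222-47414931 and Acvr2b at chr9:119402118-119434995, each on the plus strand. Acvr2a (chr2:48814109-48903269, plus strand) shares 446 exon bases with Orc4 on the opposite strand, a gene of the origin recognition complex with up to 70.9 CPM. Bmpr1a shares 290 exon bases with Gm17110, Acvr1c 168 with Gm13544 and Acvrl1 127 with Gm16031, each on the opposite strand. The labels describe strand-specific libraries but not whether the counting used the strand, so these counts, Acvr2a above all, are uncertain by the reads of those overlaps.

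RefSeq start-site windows, which run from 250 bases before to 50 bases after a start, were found for 9 of the 10 receptors (13 windows, GRCm38.p6). Acvr1 is shown because the title names it, and Bmpr1b because none of its windows was rich in CpG, whereas each of the other 8 receptors with a window had at least 1 well above the median of all windows. Capitals mark each CG. The Acvr1 window is chr2:58566779-58567078 on the minus strand, and the Bmpr1b window, 1 of 3 listed, is chr3:141982215-141982514 on the minus strand, within the annotated gene. On that strand the annotated Bmpr1b gene starts at 142169425, which none of its windows covers. The sequence at that start was therefore not described.
Acvr1: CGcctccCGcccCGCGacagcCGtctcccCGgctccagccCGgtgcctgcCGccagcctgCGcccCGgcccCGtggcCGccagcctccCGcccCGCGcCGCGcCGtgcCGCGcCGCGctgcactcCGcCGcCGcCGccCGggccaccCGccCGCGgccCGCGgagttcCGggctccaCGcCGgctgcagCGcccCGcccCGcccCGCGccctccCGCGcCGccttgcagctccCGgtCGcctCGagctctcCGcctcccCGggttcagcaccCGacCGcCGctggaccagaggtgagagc
Bmpr1b: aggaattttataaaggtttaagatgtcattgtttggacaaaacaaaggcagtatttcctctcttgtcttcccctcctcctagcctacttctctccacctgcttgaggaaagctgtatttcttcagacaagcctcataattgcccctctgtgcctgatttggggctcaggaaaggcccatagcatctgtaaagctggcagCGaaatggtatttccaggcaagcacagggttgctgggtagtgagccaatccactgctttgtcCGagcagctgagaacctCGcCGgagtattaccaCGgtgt
The Acvr1 window held 51 CpG and the Bmpr1b window 5, while the median of all 32851 windows of this length was 7. The other Bmpr1b windows held 6 each. Acvr2a held 54, Acvr1b 51, Bmpr1a 48, Acvr2b 27 and Bmpr2 23 CpG in their single windows. Acvr1c had windows of 39 and 2 CpG and Tgfbr1 windows of 34 and 3. The palindrome GGCGCC, which reads the same on both strands and holds CpG itself, occurred in 4 of the 13 windows (Bmpr2, Bmpr1a, Acvr1b and 1 window of Tgfbr1) and in 11.9% of all windows. These are descriptions of sequence, and no file measured binding or methylation there.

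The make-up of the receptor RNA varied little between libraries. Of the summed FPKM of the 7 type I receptors, Acvr1b held 30.3 ± 1.26% and Bmpr1a 27.8 ± 1.10% (mean ± SD, n = 9). Acvr1 held 13.6 ± 1.16% in SNI+LDN193189, 13.6 ± 2.22% in SNI and 12.9 ± 1.07% in sham (SD, n = 3 each). The BMP branch as a whole held 56.5 ± 1.58%, 55.5 ± 1.12% and 56.1 ± 2.15% in the same 3 groups. Among the type II receptors Bmpr2 held 73.6 ± 1.83% (n = 9), Acvr2a 20.4 ± 1.55% and Acvr2b 6.00 ± 0.675%. The type II sum was 0.608 ± 0.0148 times the type I sum in SNI+LDN193189, 0.581 ± 0.0158 times in SNI and 0.590 ± 0.0154 times in sham, and the 3 groups' libraries overlapped in pairs. With annotated exon lengths the shares of Bmpr2, Acvr2a and Acvr2b were 55.2%, 23.3% and 21.4%. The limit given above for these lengths holds here too, most of all for Acvr2b, whose counts may include bases outside the annotated exons.

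**Figure D2:**
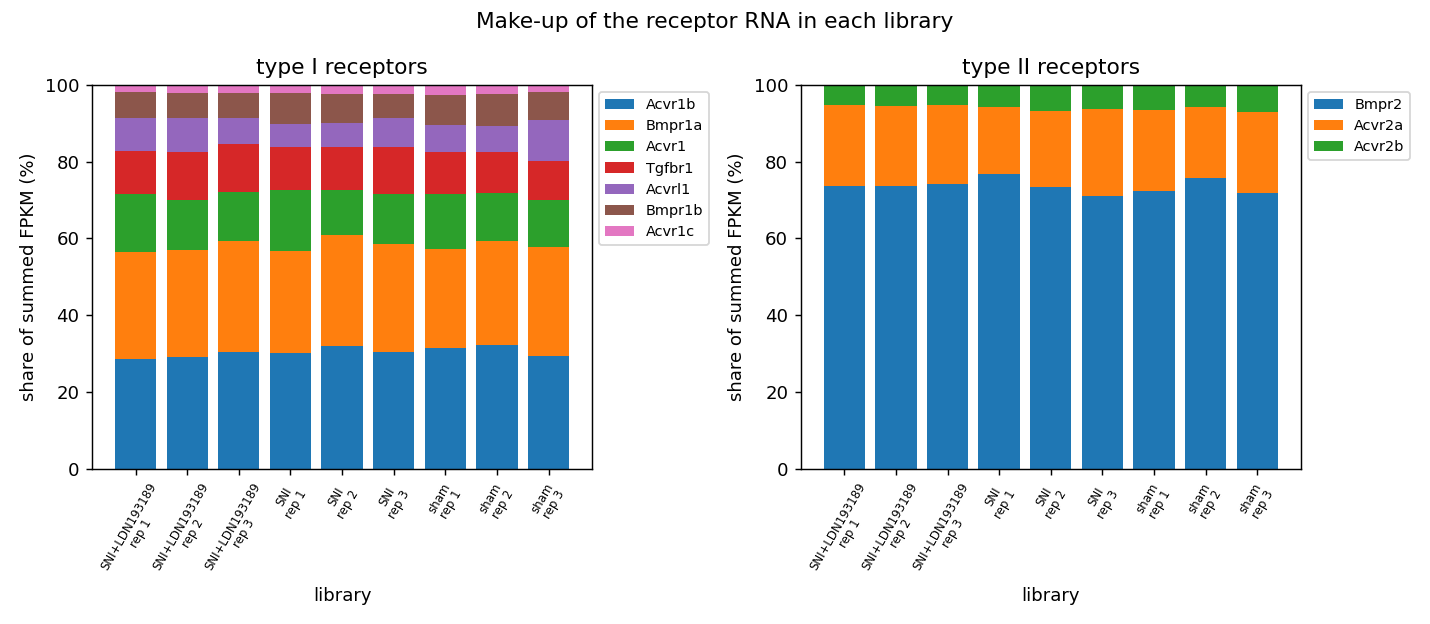
Share of each receptor in the summed FPKM of the type I receptors (left) and of the type II receptors (right), 1 bar per library. Acvr1b and Bmpr1a together make up more than the other type I receptors in every library, and Bmpr2 holds 71.0% to 76.8% of the type II sum.

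No receptor passed the Benjamini-Hochberg (BH) threshold of 0.05 with edgeR's quasi-likelihood test in any comparison. In SNI+LDN193189 against SNI, 0 of 10 receptors were called, beside 0.00548% of all 18245 genes tested, and 0 had an unadjusted p under 0.05, beside 3.88% of all genes. In SNI against sham, 0 of 10 were called, beside 0% of all genes, and 0 had an unadjusted p under 0.05, beside 5.33%. In SNI+LDN193189 against sham, 0 of 10 were called, beside 0.0164%, and 3 had an unadjusted p under 0.05, beside 8.56% of all genes. DESeq2 called 0 of the 10 in each comparison, beside 0.0329%, 0.121% and 0.4% of all genes in the same order. The 3-group test called 0 receptors as well, beside 0.00548% of genes with edgeR and 0.406% with DESeq2, and 1 receptor, Tgfbr1, had an unadjusted p under 0.05 there, beside 5.94%. These comparisons share libraries, since each group enters 2 of them. The median log2 fold change of the 10 receptors was 0.0078, 0.0094 and 0.050 in the 3 comparisons, beside -0.00075, 0.00048 and -0.0069 over all genes.

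The libraries were precise enough to bound the differences. Every 95% interval of a receptor lay between -0.48 and 0.67 on the log2 scale in SNI+LDN193189 against SNI. The bounds were -0.65 and 0.37 in SNI against sham, and -0.44 and 0.40 in SNI+LDN193189 against sham. No interval reached a log2 change of 1 in either direction. The CPM of the groups did not overlap for 1 of 10 receptors in SNI+LDN193189 against SNI, beside 11.3% of all genes: 0 were higher and 1 lower, beside 5.71% and 5.55%. They did not overlap for 1 in SNI against sham, beside 8.87%: 1 was higher and 0 lower, beside 4.45% and 4.43%. In SNI+LDN193189 against sham they did not overlap for 3, beside 13.1%: 2 were higher and 1 lower, beside 6.81% and 6.31%. These counts depend on the scaling. In the deposited FPKM Tgfbr1 overlapped in SNI against sham, and Acvr2a in SNI+LDN193189 against sham.

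**Figure D3:**
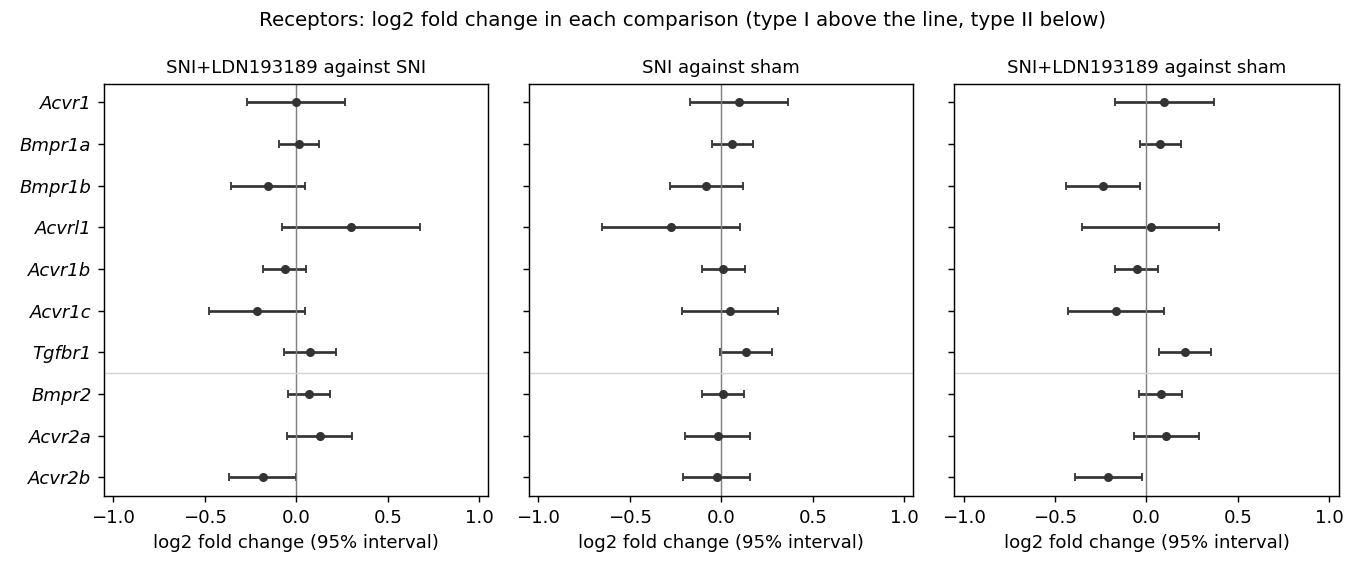
Log2 fold change of each receptor with its 95% interval (edgeR) in the 3 comparisons, type I receptors above the grey line and type II below. All intervals lie within -0.65 and 0.67, and the Tgfbr1, Bmpr1b and Acvr2b intervals of SNI+LDN193189 against sham do not cross 0.

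Among the BMP-branch type I receptors, Acvr1 had 32.5, 28.8 and 27.5 CPM in SNI+LDN193189, 35.9, 24.6 and 28.3 CPM in SNI and 30.3, 26.9 and 25.8 CPM in sham. The SNI group held both the highest and the lowest of the 9 values, and all groups overlapped. The fold of SNI+LDN193189 over SNI was 1.00, with a 95% interval of 0.830 to 1.21. SNI against sham gave a log2 fold change of 0.10 (SE 0.12, 95% interval -0.17 to 0.37, edgeR adjusted p = 0.979). SNI+LDN193189 against sham gave 0.10 (interval -0.17 to 0.37, edgeR adjusted p = 0.848). In no comparison was a difference in Acvr1 RNA larger than the spread between samples. Without SNI replicate 1 the estimate for SNI against sham was -0.065.

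Bmpr1a, which mediates BMP2 and BMP4 signals in many tissues, had 97.3, 97.2 and 100.1 CPM in SNI+LDN193189, 95.7, 98.7 and 97.1 CPM in SNI and 88.5, 93.7 and 97.4 CPM in sham. It had the narrowest interval of the 10 in SNI+LDN193189 against SNI, with a log2 fold change of 0.015 (interval -0.095 to 0.13). Bmpr1b, its close relative, had 38.0, 35.5 and 36.8 CPM in SNI+LDN193189, 46.4, 42.1 and 34.4 CPM in SNI and 43.9, 46.2 and 40.0 CPM in sham. All 3 libraries of SNI+LDN193189 lay below all 3 of sham, while those of SNI spread across both. The log2 fold change of SNI+LDN193189 against sham was -0.24 (SE 0.094, interval -0.44 to -0.038) and an edgeR adjusted p = 0.547, and its unadjusted p was under 0.05. Against SNI the value was -0.16 (interval -0.36 to 0.046).

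Acvrl1 had 18.6, 19.5 and 14.6 CPM in SNI+LDN193189, 13.6, 12.9 and 16.3 CPM in SNI and 14.7, 14.8 and 22.2 CPM in sham. Sham replicate 3 stood well above the rest of its group, and all groups overlapped. It was the receptor with the widest intervals: 0.30 (interval -0.08 to 0.67) in SNI+LDN193189 against SNI and -0.27 (interval -0.65 to 0.10) in SNI against sham. Without sham replicate 3, which also led in endothelial, nerve root and meningeal markers, the log2 fold change of SNI against sham was -0.053. The part of those markers in the difference was not tested.

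Of the activin and TGF-beta branch, Acvr1b had 72.5, 73.5 and 76.5 CPM in SNI+LDN193189, 78.3, 78.3 and 75.8 CPM in SNI and 78.3, 80.3 and 72.1 CPM in sham, with overlap among all groups. Acvr1c had 10.2, 12.8 and 11.4 CPM in SNI+LDN193189, 13.2, 13.1 and 13.6 CPM in SNI and 14.4, 13.4 and 10.8 CPM in sham. Its 3 libraries of SNI+LDN193189 lay below the 3 of SNI, the non-overlap counted above for that comparison, with a log2 fold change of -0.21 (SE 0.12, interval -0.48 to 0.049, edgeR adjusted p = 1.00). Sham overlapped both other groups.

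Tgfbr1, which carries TGF-beta signals with Tgfbr2, came closest to a difference. It had 42.1, 45.6 and 45.7 CPM in SNI+LDN193189, 42.1, 40.3 and 44.4 CPM in SNI and 40.2, 38.4 and 36.8 CPM in sham. In CPM every library of SNI+LDN193189 and every library of SNI lay above every library of sham, while the SNI+LDN193189 and SNI libraries overlapped. The gap between SNI and sham was narrow and depended on the scaling. In the deposited FPKM the lowest SNI library (6.29) lay below the highest sham library (6.35). The log2 fold change was 0.21 in SNI+LDN193189 against sham (SE 0.066, interval 0.068 to 0.35) and an edgeR adjusted p = 0.454. This was the smallest p of any receptor. In SNI against sham it was 0.14 (SE 0.066, interval -0.0060 to 0.28) and an edgeR adjusted p = 0.927. SNI+LDN193189 against SNI gave 0.074 (interval -0.067 to 0.22). Microglial markers, whose cells express this receptor, summed to 312 to 331 CPM in SNI+LDN193189, 287 to 319 CPM in SNI and 248 to 283 CPM in sham, with neither injured group overlapping sham, and their part was not tested.

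Among the type II receptors Bmpr2 had 297, 311 and 302 CPM in SNI+LDN193189, 303, 288 and 277 CPM in SNI and 287, 305 and 271 CPM in sham, with overlap throughout. Acvr2a had 40.8, 42.8 and 40.5 CPM in SNI+LDN193189, 33.2, 37.6 and 42.7 CPM in SNI and 40.2, 36.1 and 38.8 CPM in sham. In CPM SNI+LDN193189 lay just above sham without overlap, with a log2 fold change of 0.11 (interval -0.068 to 0.28, edgeR adjusted p = 0.733). In the deposited FPKM these groups overlapped, with 7.08 the lowest Acvr2a value of SNI+LDN193189 and 7.15 the highest of sham. Acvr2b had 22.2, 24.2 and 21.7 CPM in SNI+LDN193189, 23.6, 27.7 and 25.9 CPM in SNI and 27.1, 24.1 and 27.4 CPM in sham. Its log2 fold change was -0.21 against sham (SE 0.086, interval -0.39 to -0.025, edgeR adjusted p = 0.556, unadjusted p under 0.05) and -0.18 against SNI (interval -0.36 to 0.0010, edgeR adjusted p = 1.00). The Acvr2b libraries of SNI+LDN193189 overlapped those of both other groups. The lowest adjusted p of any receptor under any alternative setting was 0.234, for Acvr2b in SNI+LDN193189 against sham without sham replicate 2.

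**Figure D4:**
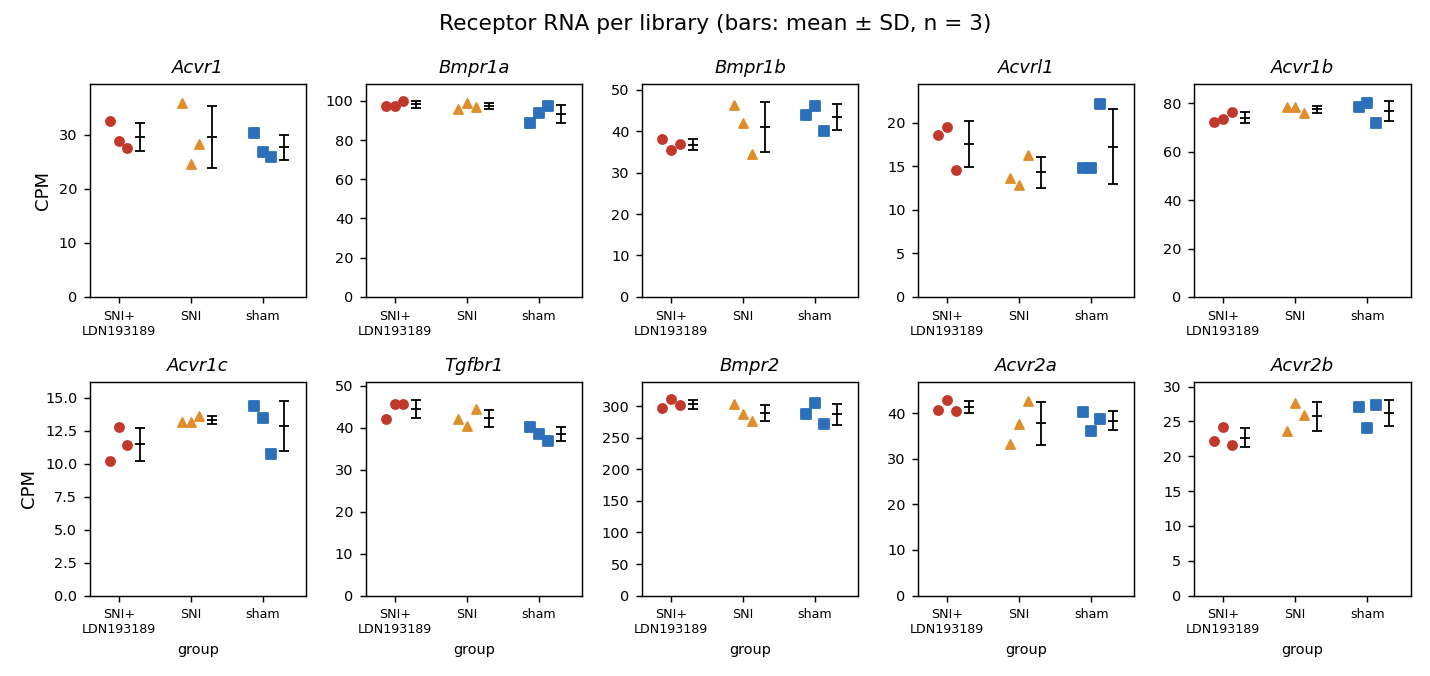
CPM of each receptor in the 9 libraries, with 3 points per group and a bar for mean ± SD (n = 3). Each axis starts at 0. SNI+LDN193189 and sham do not overlap for Bmpr1b, Tgfbr1 and Acvr2a, SNI and sham for Tgfbr1, and SNI+LDN193189 and SNI for Acvr1c.

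The receptors did not move as a block from library to library. Over the 9 libraries the Pearson correlation of log2 CPM between pairs of receptors ran from -0.89 (Acvr1b with Acvrl1) to 0.76 (Acvr1c with Acvr1b). Acvr1 correlated most with Bmpr2 among the other receptors (0.37) and least with Acvr2b (-0.47). The 3 genes of all those tested whose log2 CPM was most like that of Acvr1 were Desi2 (r = 0.93), Arpc5l (r = 0.92) and Tbp (r = 0.90). Their Spearman values were 0.82, 0.93 and 0.88. Arpc5l, for example, had 68.2, 66.4 and 65.3 CPM in SNI+LDN193189, 70.3, 64.6 and 67.8 CPM in SNI and 68.9, 65.4 and 63.7 CPM in sham, a narrow range that tracked Acvr1 library by library. These are descriptions over libraries that share depth and preparation, chosen as the highest of 18244 values.

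The rest of the pathway was examined in lists of ligands, co-receptors, antagonists, SMAD proteins, inhibitors and target genes, which together hold 73 other symbols. Of these 71 were in the table, 63 were tested, and Bmp10, Gdf1 and Msx2 had a count of 0 in all libraries. With edgeR and BH, 0 of 63 were called in any comparison. Of all genes 0.00548% were called in SNI+LDN193189 against SNI, 0% in SNI against sham and 0.0164% in SNI+LDN193189 against sham. An unadjusted p under 0.05 was found for 0 higher and 3 lower in SNI+LDN193189 against SNI (beside 1.69% and 2.19% of all genes). In SNI against sham it was found for 3 higher and 4 lower (beside 2.02% and 3.31%), and in SNI+LDN193189 against sham for 2 higher and 6 lower (beside 4.07% and 4.49%). The median log2 fold change of the 63 genes was 0.036, -0.032 and 0.00069 in these comparisons. DESeq2 called 1 of the 63 in SNI+LDN193189 against sham, Tmem100, and 0 in each of the other comparisons of 2 groups. The DESeq2 3-group test called Tmem100 (adjusted p = 0.00611) and Hjv (adjusted p = 0.0330), beside 0.406% of all genes.

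Of these pathway genes Tmem100, a target gene, had the lowest p in the edgeR 3-group test, followed by the co-receptor Rgma. Tmem100, a vascular gene induced through Acvrl1, had 17.0, 16.1 and 18.3 CPM in SNI+LDN193189, 25.9, 23.1 and 19.1 CPM in SNI and 24.7, 24.8 and 25.2 CPM in sham. The 3 libraries of SNI+LDN193189 lay below all 6 others. Non-overlap in that direction was found for 5.55% of all genes against SNI and 6.31% against sham. The pathway genes named here were picked by their 3-group p, so separation of their groups is no independent result. Against sham the edgeR log2 fold change was -0.54 (SE 0.10, interval -0.76 to -0.32) with an adjusted p = 0.162, and DESeq2 gave an adjusted p = 0.00225. Over all alternatives the adjusted p ran from 0.00225 to 0.515, and without SNI replicate 3 edgeR gave 0.0276. Against SNI the log2 fold change was -0.41 (interval -0.62 to -0.19, edgeR adjusted p = 1.00). Endothelial markers summed to 398 to 437 CPM in SNI+LDN193189, 411 to 458 CPM in SNI and 403 to 499.5 CPM in sham, overlapping among the groups. The medians were 406, 451 and 443 CPM in the same order. The part of these markers in the Tmem100 level was not tested.

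Id2, an inhibitor of basic helix-loop-helix factors and a classic BMP target, had 75.6, 67.9 and 80.2 CPM in SNI+LDN193189, 106, 99.0 and 80.7 CPM in SNI and 89.8, 112 and 86.3 CPM in sham. Its libraries of SNI+LDN193189 also lay below all 6 others, beside the shares of all genes given for Tmem100. The log2 fold changes were -0.35 against SNI and -0.36 against sham (edgeR adjusted p = 1.00 and 0.547). The list of target genes, which also holds Smad7 and Bambi, had 12 genes tested. In SNI+LDN193189 against SNI, 6 were positive and 6 negative (median log2 fold change 0.030). Against sham, 9 were positive and 3 negative (median 0.13). Smad7, an inhibitory SMAD that blocks type I receptors, had 23.2, 22.9 and 29.1 CPM in SNI+LDN193189, 27.4, 26.5 and 24.0 CPM in SNI and 21.3, 19.4 and 21.6 CPM in sham. Smad7 lay above sham in all 6 injured libraries, beside non-overlap in that direction for 6.81% and 4.45% of all genes. The log2 fold changes were 0.27 in SNI+LDN193189 against sham and 0.32 in SNI against sham (edgeR adjusted p = 0.535 and 0.900). Skil, a repressor of SMAD2 and SMAD3 activity, had 57.5, 49.7 and 56.8 CPM in SNI+LDN193189, 65.2, 63.1 and 59.3 CPM in SNI and 63.8, 60.5 and 57.9 CPM in sham. It was lowest in SNI+LDN193189 without overlap, beside the shares of all genes given for Tmem100. Bambi, a pseudoreceptor without a kinase, ranged over 2.57 to 4.71 CPM in SNI+LDN193189, 2.96 to 3.89 CPM in SNI and 3.91 to 5.49 CPM in sham. SNI lay below sham without overlap, as for 4.43% of all genes, with a log2 fold change of -0.40 (edgeR adjusted p = 0.941).

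Rgma, a membrane-anchored BMP co-receptor, had 57.3, 54.7 and 57.0 CPM in SNI+LDN193189, 53.3, 53.1 and 51.7 CPM in SNI and 50.9, 47.3 and 44.1 CPM in sham. The 3 groups were separate, with sham lowest. Non-overlap in the same direction was found for 5.71% of all genes in SNI+LDN193189 against SNI. It was found for 4.45% in SNI against sham and 6.81% in SNI+LDN193189 against sham. The log2 fold change of Rgma was 0.25 in SNI+LDN193189 against sham (SE 0.062, interval 0.12 to 0.38, edgeR adjusted p = 0.329). Tgfb1, a TGF-beta ligand, had 5.34, 7.50 and 5.96 CPM in SNI+LDN193189, 5.83, 6.08 and 6.28 CPM in SNI and 7.99, 7.54 and 8.75 CPM in sham, with sham above both. Its log2 fold change was -0.37 in SNI+LDN193189 against sham and -0.42 in SNI against sham (edgeR adjusted p = 0.547 and 0.927). Non-overlap in that direction was found for 6.31% and 4.43% of all genes.

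**Figure D5:**
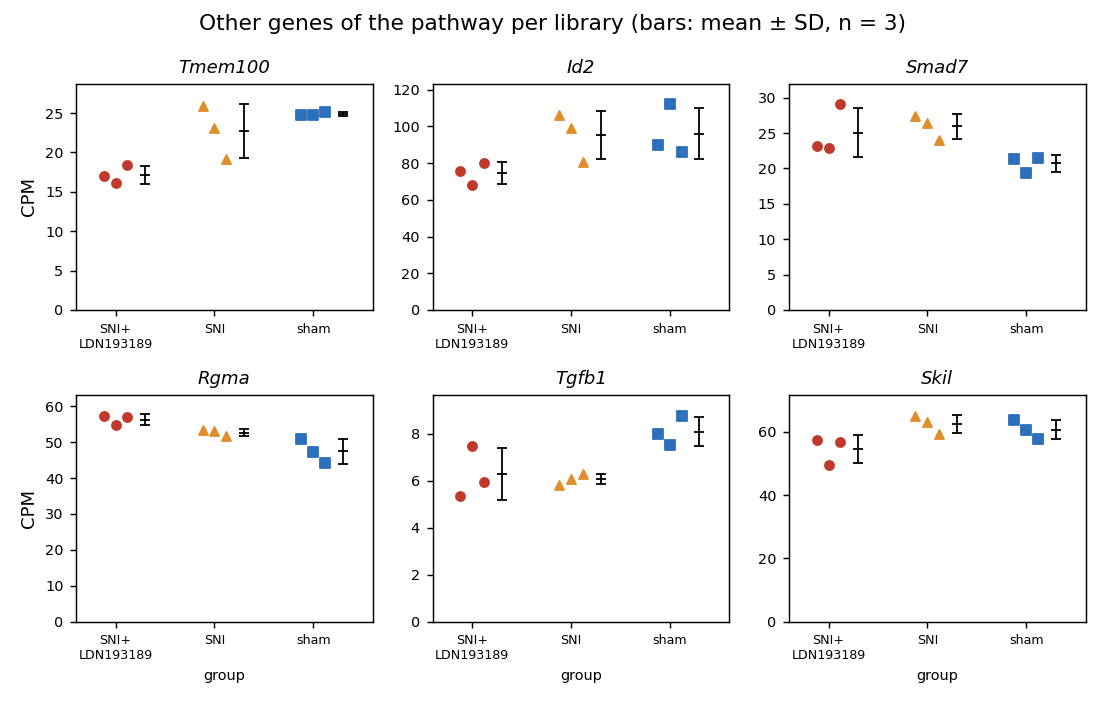
CPM of 6 other pathway genes in the 9 libraries, with 3 points per group and a bar for mean ± SD (n = 3). Each axis starts at 0. Tmem100 and Id2 lie lower in SNI+LDN193189 than in the other groups, Smad7 and Rgma lie higher in both injured groups than in sham, and Tgfb1 lies highest in sham.

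Some pathway genes were highest in the sham libraries that stood apart. Tgfbr2, the TGF-beta type II receptor that pairs with Tgfbr1, had 23.9, 26.3 and 23.9 CPM in SNI+LDN193189, 22.1, 27.2 and 24.3 CPM in SNI and 26.0, 28.9 and 41.3 CPM in sham, highest in sham replicate 3. Sostdc1, a secreted BMP antagonist, had 5.92, 2.45 and 2.06 CPM in SNI+LDN193189, 1.09, 2.31 and 2.93 CPM in SNI and 2.73, 6.77 and 18.7 CPM in sham. Nbl1, another secreted antagonist, had 33.4, 39.5 and 38.3 CPM in SNI+LDN193189, 25.9, 25.6 and 28.7 CPM in SNI and 25.8, 38.4 and 49.5 CPM in sham. That sham library had the highest nerve root and meningeal sums. Hjv, a BMP co-receptor of muscle and liver, had 0.575, 0.777 and 0.516 CPM in SNI+LDN193189, 0.425, 0.646 and 0.388 CPM in SNI and 5.68, 0.997 and 0.753 CPM in sham, where the first sham library also held the muscle markers. The part of these other tissues in the 4 genes was not tested.

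The genes of the SMAD proteins below the receptors differed little in level between groups. With edgeR 0 of 6 were called in any comparison of 2 groups, beside 0% to 0.0164% of all genes. DESeq2 also called 0, beside 0.0329% to 0.4%. An unadjusted edgeR p under 0.05 was found for 0, beside 3.88% to 8.56%. With shares this low, 0 of 6 does not set these genes apart. Smad1 ranged over 29.0 to 31.3 CPM in SNI+LDN193189, 26.6 to 29.1 CPM in SNI and 27.3 to 30.2 CPM in sham. Smad2 ranged over 48.0 to 52.6 CPM in SNI+LDN193189, 43.4 to 47.3 CPM in SNI and 46.5 to 50.5 CPM in sham, and Smad4, the common partner, over 73.4 to 78.2, 69.8 to 72.1 and 72.5 to 76.4 CPM in the same groups. For Smad2 and Smad4, SNI+LDN193189 lay above SNI without overlap, as for 5.71% of all genes, with log2 fold changes of 0.12 and 0.092 and edgeR adjusted p-values of 1.00 for each. Smad4 also lay below sham without overlap in SNI in CPM, as for 4.43% of all genes, with a log2 fold change of -0.072 (edgeR adjusted p = 0.944). In the deposited FPKM the SNI libraries reached 9.41 and the lowest sham library had 9.36, so these groups overlapped for Smad4. Gdf10, a ligand of the family, ranged over 3.68 to 6.02, 3.80 to 5.37 and 3.64 to 4.06 CPM in SNI+LDN193189, SNI and sham. Nodal and Fstl3, a ligand and an activin-binding antagonist, stayed under 1 CPM in every library.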

How the data were processed

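RNA of mouse spinal cord was sequenced in 9 libraries. The authors deposited counts and FPKM per gene symbol for 40879 symbols. The genome build was mm10, per the submitters' processing notes, and aligner, counter and annotation are not given in the sources used here. For all 26285 genes with a count, the deposited FPKM matched the count over library total and 1 fixed length per gene (relative tolerance 1e-09). Of the deposited counts above 0, 71.2% were even, and of the 90 receptor counts 49 were. Columns headed L, N and S were read as SNI+LDN193189, SNI and sham by the sample titles.

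Counts were tested in edgeR 4.0.16 (R 4.3.3) with TMM scaling, filterByExpr, and quasi-likelihood F tests of all 9 libraries in 1 fit of group means (6 residual degrees of freedom, common biological coefficient of variation 0.132), with BH adjustment over 18245 genes at 0.05 and 95% intervals. CPM used TMM-scaled totals, and log2 CPM a prior count of 2. The fit was checked on simulated counts. Alternatives were DESeq2 1.42.0, limma 3.58.1 (voom, and log2 FPKM with a pseudocount of 0.1 or 1), other scalings, no low-count filter, 2-group fits, a replicate block, the mean nerve root level as a covariate, and leaving out each library. Replicate numbers were not used to pair the samples in the main fit. The members and lists were chosen with earlier results of these data known. Named genes were the 10 receptors, up to 3 genes per pathway list with the smallest 3-group p, called genes, up to 3 genes most like Acvr1, and Sprr1a as a check of the columns. The protein comparison that had been planned was not run. Sequences and start windows came from RefSeq, loci and exon lengths from GENCODE M21. With few libraries the intervals cover the spread between samples, and counting error is part of it.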

Additional observations from a re-analysis of the deposited data

How the results depend on the processing

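No receptor passed BH under any alternative. Of 570 alternative values of the 30 receptor fold changes, 541 kept their direction and side of the threshold and 29 reversed, 18 of them without a library. The largest reversed value was -0.17, and the cause was not tested. Scalings moved the median of all genes by less than 0.1 on the log2 scale.

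The genes called in SNI+LDN193189 against SNI numbered 1, and 2 with no filter, 6 with DESeq2, 0 with voom, 0 with log2(FPKM + 0.1), 0 with log2(FPKM + 1), 3 in the fit of those 2 groups, 0 with the nerve root covariate and 0 to 2 without a library. In SNI against sham they numbered 0, and 22 with DESeq2, 13 with the covariate and 0 to 38 without a library. In SNI+LDN193189 against sham they numbered 3, and 30 with no filter, 73 with DESeq2, 1 with voom, 1 with log2(FPKM + 0.1), 1 with log2(FPKM + 1), 13 with the covariate and 1 to 17 without a library. In the 3-group test they numbered 1, and 25 with no filter, 74 with DESeq2, 0 with either FPKM fit, 19 with the covariate and 1 to 19 without a library. Pathway genes called in SNI against sham were 0, and 1 with the covariate (Hjv, adjusted p = 0.0165) and 0 to 1 without a library (Nbl1 without sham replicate 1, adjusted p = 0.0213). In SNI+LDN193189 against sham they were 0, and 1 with no filter and 1 with DESeq2, both Tmem100, and 0 to 1 without a library.

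Same-numbered samples had correlations of their deviations from -0.11 to 0.14, and differently numbered ones from -0.18 to 0.13. The labels do not say whether same-numbered samples share animals or days, so no pairing was assumed. With the replicate block the genes called were 0, 0 and 4 in the 3 comparisons and 5 in the 3-group test, and receptors called stayed 0.

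Reversed log2 fold changes in SNI+LDN193189 against SNI were -0.0074 for Acvr1 with upper quartile scaling and -0.022 for Bmpr1a with the covariate. In SNI against sham the covariate gave -0.085 for Acvr1, 0.13 for Acvrl1, -0.069 for Acvr1b, -0.17 for Acvr1c, -0.076 for Bmpr2, 0.045 for Acvr2a and 0.020 for Acvr2b, and the FPKM fits gave -0.0017 for Bmpr2. Without a library, SNI against sham ranged from -0.065 to 0.21 for Acvr1, -0.035 to 0.043 for Acvr1b, -0.067 to 0.14 for Acvr1c, -0.11 to 0.065 for Acvr2a, -0.086 to 0.031 for Acvr2b, -0.18 to 0.029 for Bmpr1b and -0.035 to 0.051 for Bmpr2. Acvr1 ranged from -0.12 to 0.16 in SNI+LDN193189 against SNI, and Acvrl1 from -0.081 to 0.24 in SNI+LDN193189 against sham. With annotated exon lengths the shares were 10.6% for Acvr1, 26.7% for Bmpr1a, 11.9% for Bmpr1b, 55.2% for Bmpr2, 23.3% for Acvr2a and 21.4% for Acvr2b, and the type II over type I ratio was 0.521. These values divide the deposited counts by lengths of gene models that may differ from those used for counting. The likeness of Acvr1 and Desi2 was 0.82 by Spearman.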
